A study of Homo sapiens with 6 samples.

Results

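Neuroendocrine secretory markers were examined in cells of the adrenocortical carcinoma line H295R. The set holds 10 genes, SYP, CHGA, CHGB, ENO2, NCAM1, SCG2, SCG5, SNAP25, STX1A and INSM1, out of 57341 named genes in the deposited count table, picked by name with no measured value in the rule, although results of these data were known at the time. All 10 were in the table and all 10 passed the filter on low counts, in both groups. The table holds 3 libraries of the parental H295R cells and 3 of the H295R-PM-Ptc+ population, which was selected by flow cytometry for the Hedgehog receptor Ptch1 on the cell surface and expanded. Both were grown untreated in the same supplemented DMEM/F12 medium. H295R is a single human line, so the groups are populations of one tumor, and the labels do not say whether the replicates were separate cultures, so the p-values measure only the spread between these libraries.

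Neuroendocrine cells store peptide hormones in dense-core granules and release them when the granule fuses with the plasma membrane. Granins (chromogranins CHGA and CHGB, secretogranin SCG2) are acidic cargo proteins that help form the granule, synaptophysin (SYP) sits in the membrane of small secretory vesicles, and SNAP25 and syntaxin 1A (STX1A) are SNARE proteins of the plasma membrane that pull the vesicle in. Pathologists use CHGA to tell tumors of the adrenal medulla, whose chromaffin cells make catecholamines, from tumors of the cortex, which make steroids. Cortical tumors often stain for SYP, neuron-specific enolase (ENO2) and NCAM1 (CD56) without being neuroendocrine.

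Between 23264403 and 25813247 fragments were counted per library. The library labels are in doubt. PTCH1, the gene of the receptor used for the sort, had 18.5, 22.0 and 23.4 CPM (counts scaled to the library total) in H295R-labelled libraries and 9.70, 13.1 and 13.8 in H295R-PM-Ptc+-labelled ones, a log2 fold change of -0.81 (standard error, SE, 0.147, adjusted p = 0.0207), against the label. The groups did not overlap, and the adjusted p missed the threshold when H295R replicate 2 (0.0799), H295R replicate 3 (0.0921) or H295R-PM-Ptc+ replicate 2 (0.0618) was left out. Normalized columns that accompany the study match the deposited columns of the other group name in 6 of 6 cases. Each library is called here by its deposited label, and every direction given below would turn around if the names were exchanged. Replicate 1 stood apart from replicates 2 and 3 of its group, with a chi-square per gene of 19.5 to 28.3 against 5.99 and 10.3 between replicates 2 and 3.

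Regulatory sequence near the start of the genes was read first, because many neuroendocrine genes carry a binding motif of the repressor REST, named RE1. The RE1 motif was searched on both strands within 2000 bases of the RefSeq start, with at most 3 mismatches over the 19 letters it specifies. RefSeq starts (GRCh38.p14) were matched for 10517 tested genes, among them 5 of the 10 markers (SYP, CHGA, ENO2, SCG5 and STX1A), and sequence was read from hg38. CHGA held the motif with 0 mismatches in an intron, 383 bases after its start, and SYP held it with 2 mismatches in an intron, 61 bases after its start. A match with 0 mismatches was found for 5 (0.0475%) and one with up to 2 mismatches for 36 (0.342%) of the 10517 genes. ENO2 and STX1A had at least 6 mismatches and SCG5 at least 7 at every position of the window. Among other secretory genes examined here, PTPRN held a full match and VGF, SYN1 and SYT5 a match with 1 mismatch, picked after the search. A match with up to 1 mismatch was found for 13 (0.124%) of the 10517 genes. The other secretory genes searched had at least 3 mismatches, such as CADPS with 3, PAM with 6 and SCG3 with 7. The sites are shown because they are the sequence feature that some of the markers share. Capitals mark letters that equal the motif, written on the strand of the match, so the capitals of the CHGA line are the motif itself.
CHGA, chr14:92923523-92923543, + strand: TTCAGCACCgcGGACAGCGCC
SYP, chrX:49200122-49200142, - strand: TcCAGCACCgtGGACAGaGCC
PTPRN, chr2:219308319-219308339, - strand: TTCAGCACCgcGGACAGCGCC
VGF, chr7:101165559-101165579, + strand: TTCAGCACgctGGACAGCGCC
SYN1, chrX:47620070-47620090, - strand: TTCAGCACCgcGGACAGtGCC
SYT5, chr19:55180200-55180220, - strand: aTCAGCACCcgGGACAGCGCC

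The cyclic AMP response element, searched on both strands as TGACGTCA or TGACGTAA in the 300 bases around the RefSeq start, was present in 1 of the 5 markers with a promoter sequence and in 405 (3.85%) of the 10517 genes. That gene was CHGA, whose element is TGACGTCA and starts 54 bases before the gene start. The 250 bases upstream of CHGA and SYP are given from RefSeq, with the element in capitals. SYP is the marker with a promoter sequence that passed the test described further on, and neither form of the element was found in its window. No match says only that these letters are not in the window, and no binding was measured.
CHGA, chr14:92922900-92923149, + strand: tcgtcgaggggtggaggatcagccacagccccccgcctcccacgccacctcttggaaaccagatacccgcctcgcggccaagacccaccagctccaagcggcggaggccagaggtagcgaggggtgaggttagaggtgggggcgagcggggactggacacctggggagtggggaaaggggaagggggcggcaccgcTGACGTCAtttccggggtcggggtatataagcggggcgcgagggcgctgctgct
SYP, chrX:49200194-49200443, - strand: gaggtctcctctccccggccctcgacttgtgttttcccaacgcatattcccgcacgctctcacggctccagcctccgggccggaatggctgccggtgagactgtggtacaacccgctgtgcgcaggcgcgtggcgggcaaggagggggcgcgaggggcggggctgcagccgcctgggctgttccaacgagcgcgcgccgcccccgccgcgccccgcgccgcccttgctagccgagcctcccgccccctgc

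The 10 markers covered a wide range of levels, compared between genes as TPM, which divides the counts by gene length before scaling to the library. NCAM1, a cell adhesion molecule, was the highest of the set, with 76.9 ± 13.4 TPM in H295R-labelled libraries and 62.9 ± 10.8 in H295R-PM-Ptc+-labelled ones (SD, n = 3 each here and below). CHGB followed at 58.0 ± 5.34 and 46.0 ± 4.41 TPM. Their means over the 6 libraries lay above the levels of 82.9% and 77.2% of all tested genes. A middle group was formed by SNAP25 (23.4 ± 1.05 and 16.6 ± 0.940 TPM), SYP (15.4 ± 0.911 and 22.9 ± 1.84) and ENO2 (15.9 ± 2.67 and 15.7 ± 0.0598). STX1A stood at 4.59 ± 0.375 and 5.48 ± 0.341 TPM. The lowest were SCG5, a chaperone of the prohormone convertase PC2, at 1.91 ± 0.331 and 1.99 ± 0.223 TPM, SCG2 at 1.74 ± 0.802 and 1.81 ± 0.493, and INSM1, a zinc finger transcription factor of neuroendocrine differentiation, at 1.73 ± 0.504 and 1.11 ± 0.190. CHGA was last at 0.561 ± 0.0292 and 0.866 ± 0.235 TPM, above 5.16% of tested genes. The annotated exons of CHGA and SCG5 lie on 2 sequences that both count toward the gene length. Their TPM, and so their places in the order, may therefore be too low.

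The chromogranins thus lay far apart, with CHGB 92.8 to 111 times CHGA by TPM in H295R-labelled libraries and 44.3 to 63.1 times in H295R-PM-Ptc+-labelled ones. The length of CHGA may inflate these ratios. By CPM, which leaves gene length out, the group means were 71.4 and 54.3 for CHGB against 0.783 and 1.16 for CHGA. Neighbors in the order that overlapped between libraries of the same group were NCAM1 and CHGB, SYP and ENO2, and SCG5, SCG2 and INSM1 in H295R-labelled libraries. In the other group, the lowest NCAM1 library (50.8 TPM) lay just above the highest CHGB library (50.4 TPM), and SNAP25 overlapped ENO2, SCG5 overlapped SCG2 and INSM1 overlapped CHGA. The order of the means was the same in both groups but for the 3rd to 5th places, which were held by SNAP25, ENO2 and SYP in H295R-labelled libraries and by SYP, SNAP25 and ENO2 in H295R-PM-Ptc+-labelled ones.

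**Figure D1:**
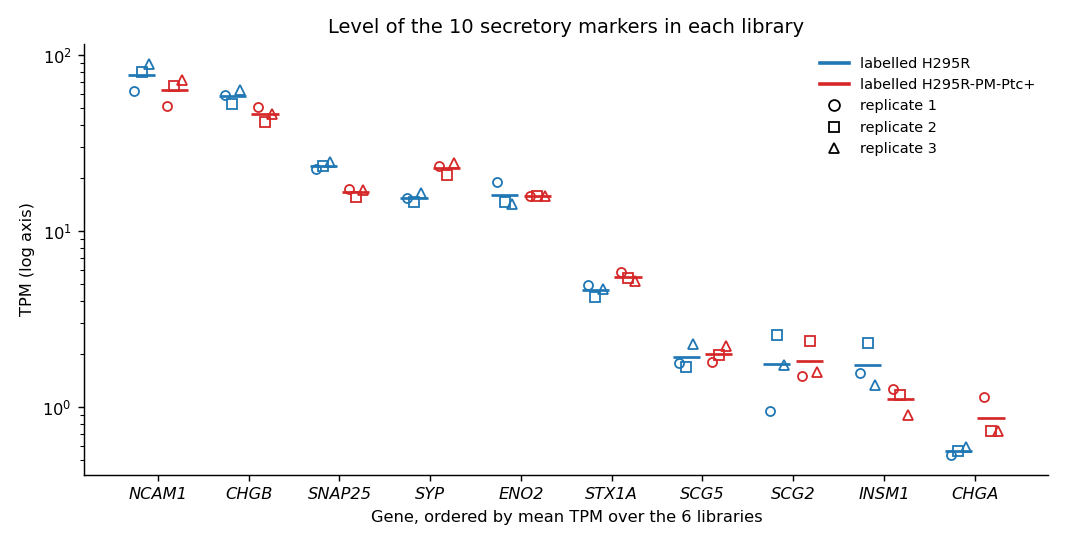
TPM (log axis) of each of the 10 markers in each library, with points for replicates 1 to 3 and bars for the mean of each group of 3. NCAM1 and CHGB are highest and CHGA lowest in both groups, SYP is higher and SNAP25 lower in all 3 libraries labelled H295R-PM-Ptc+, and ENO2 overlaps. The TPM of CHGA and SCG5 may be too low, since their gene lengths count exons on 2 sequences.

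SYP and SNAP25 differed between the groups in opposite directions. SYP (chromosome X, 49187804 to 49200259, minus strand, hg38) had 22.0, 20.6 and 22.7 CPM in H295R-labelled libraries and 31.9, 29.0 and 32.1 in H295R-PM-Ptc+-labelled ones. The groups did not overlap, and SYP was 1.42-fold higher in the latter, a log2 fold change of 0.51 (SE 0.0827, adjusted p = 0.0119, edgeR quasi-likelihood test). The adjusted p stayed under 0.05 with each other test or filter tried, and missed the threshold when H295R replicate 2 (0.0551), H295R replicate 3 (0.0544) or H295R-PM-Ptc+ replicate 3 (0.0745) was left out.

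SNAP25 (chromosome 20, 10218830 to 10307418, plus strand), which encodes a SNARE of vesicle fusion, had 20.7, 21.3 and 21.9 CPM in H295R-labelled libraries and 15.1, 13.9 and 14.5 in H295R-PM-Ptc+-labelled ones. The groups did not overlap here either. Its difference was -0.55 on the log2 scale (SE 0.0837, adjusted p = 0.00852), so the level in H295R-PM-Ptc+-labelled libraries was 0.683 of that in the others. The adjusted p was 0.0541 without H295R replicate 3 and 0.0555 without H295R-PM-Ptc+ replicate 2. The ratio of SYP to SNAP25 within one library, which library scaling cannot move, was 0.685, 0.625 and 0.669 by TPM in H295R-labelled libraries and 1.36, 1.34 and 1.43 in H295R-PM-Ptc+-labelled ones. That ratio was formed after the values were seen and is given without a test.

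CHGB and NCAM1, the most abundant of the set, were lower in H295R-PM-Ptc+-labelled libraries in each of the 3 same-numbered pairs. CHGB (chromosome 20, 5911430 to 5925361, plus strand) had 73.8, 64.4 and 75.8 CPM in H295R-labelled libraries and 59.7, 50.4 and 52.9 in H295R-PM-Ptc+-labelled ones. The groups did not overlap and gave a log2 difference of -0.39 (SE 0.0943, adjusted p = 0.0579). CHGB passed with the replicate number as a block (adjusted p = 7.38e-05), with DESeq2 (0.0170), with all genes kept whatever their counts (0.0140), without H295R-PM-Ptc+ replicate 1 (0.0441) and without both libraries of replicate 1 (0.00515).

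NCAM1 (chromosome 11, 112961247 to 113278436, plus strand) had 219, 275 and 302 CPM in H295R-labelled libraries and 169, 226 and 231 in H295R-PM-Ptc+-labelled ones. The groups overlapped, since replicate 1 was the lowest in each. The log2 fold change was -0.35 (SE 0.148, adjusted p = 0.273), with a 95% confidence interval of -0.68 to -0.01 before adjustment. With the replicate block the adjusted p was 2.77e-05, and without both libraries of replicate 1 it was 0.00356.

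**Figure D2:**
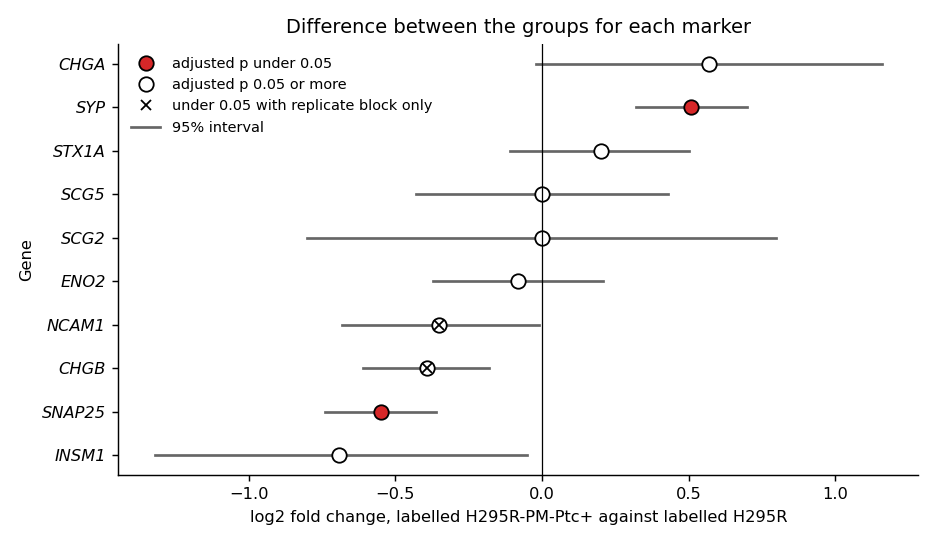
Log2 fold change of each marker, labelled H295R-PM-Ptc+ against labelled H295R, with its unadjusted 95% interval from the edgeR fit of 3 against 3 libraries. SYP (0.51) and SNAP25 (-0.55) are filled for an adjusted p under 0.05, CHGB and NCAM1 carry a cross for passing with the replicate block and not in the fit without it, and the intervals of SCG2 and SCG5 are centered on 0.

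The remaining granule genes were near the limit of what the depth can show. CHGA (chromosome 14, 92923080 to 92935293, plus strand), the marker of the adrenal medulla, held 18, 20 and 20 counts in H295R-labelled libraries and 39, 25 and 22 in H295R-PM-Ptc+-labelled ones. All 3 of the latter lay above the others, but replicate 1 stood far above replicates 2 and 3. Its log2 fold change was 0.57 (SE 0.259, adjusted p = 0.305, or 0.151 with the replicate block), with an interval of -0.02 to 1.16. Across the alternatives the log2 fold change lay between 0.29 and 0.68 and its adjusted p was at least 0.151.

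SCG2 (chromosome 2, 223596940 to 223602503), the precursor of secretoneurin, held 17, 48 and 31 counts against 27, 43 and 25. Replicate 2 was the highest in both groups and the groups overlapped, their log2 difference being 0.00 with an interval of -0.80 to 0.80. SCG5 (chromosome 15, 32641676 to 32697098) held 40, 40 and 52 counts against 41, 45 and 45, again 0.00, with an interval of -0.43 to 0.43. A change of either gene inside its interval was not detectable in these libraries, and the SE of SCG2 was 0.353 without and 0.234 with the replicate block.

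STX1A (chromosome 7, 73699206 to 73719672, minus strand), the partner of SNAP25 in the SNARE complex, had 5.02, 4.21 and 4.57 CPM in H295R-labelled libraries and 5.63, 5.35 and 4.84 in H295R-PM-Ptc+-labelled ones. Its log2 fold change was 0.20 (adjusted p = 0.516, interval -0.11 to 0.50), so that it did not pass in the direction of SNAP25 or in the other. Its exons share 662 bases with WBSCR22 on the opposite strand, which held 2135 to 2338 counts per library against 107 to 144 for STX1A, and the separation rests on the strand setting of the counting. ENO2 (chromosome 12, 6913745 to 6923698), the glycolytic enzyme known as neuron-specific enolase, had 22.4, 17.0 and 16.3 against 17.6, 18.1 and 17.0 CPM. The highest library, H295R replicate 1, lay in the group that holds the lowest as well, and the log2 fold change was -0.08 (adjusted p = 0.829, interval -0.37 to 0.21).

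INSM1 (chromosome 20, 20368121 to 20370949), a gene of 1 exon, held 29, 45 and 25 counts in H295R-labelled libraries and 24, 22 and 15 in H295R-PM-Ptc+-labelled ones. The CPM values did not overlap, from 1.01 to 1.77 against 0.648 to 0.939. The log2 fold change of -0.69 (SE 0.281, adjusted p = 0.254) had an interval of -1.32 to -0.05, and its adjusted p with the block was 0.0605.

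In all, 2 of the 10 markers had an adjusted p under 0.05, SYP higher and SNAP25 lower in H295R-PM-Ptc+-labelled libraries, where 3.73% of the 16710 tested genes did (2.42% higher and 1.32% lower). With the replicate block 4 did (SYP higher, SNAP25, CHGB and NCAM1 lower), against 22.5% of all genes (12.1% higher and 10.4% lower), and without both libraries of replicate 1 the same 4 did, against 12% of all genes. The count was 0 without H295R replicate 3 (all genes 1.28%), where SYP and SNAP25 both lay just above the threshold. It was 1 when H295R replicate 2 (all genes 1.63%) or H295R-PM-Ptc+ replicate 2 (1.45%) or 3 (1.5%) was left out, and 3, with CHGB, when H295R-PM-Ptc+ replicate 1 was (2.53%). In 5 of the 10 the groups did not overlap in CPM (SYP and CHGA higher, CHGB, SNAP25 and INSM1 lower), against 23.5% of all tested genes. For each of these 5 genes an exact two-sided permutation test gave p = 0.1, the smallest that 3 libraries against 3 allow. The median log2 fold change over the 10 was -0.04, against 0.00 over all genes tested. In bulk RNA, fewer cells that express a marker and less of its RNA per cell cannot be told apart.

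The markers did not move as one block. Over the 6 libraries, Pearson's r of log2 CPM was 0.92 between CHGB and SNAP25, -0.94 between SYP and SNAP25, -0.77 between SYP and CHGB and 0.78 between SYP and CHGA, a description over 6 points that share the group difference. CHGB, SNAP25 and INSM1, the 3 markers that were lower without overlap, all lie on the short arm of chromosome 20. Of the 40 tested genes nearest to each (20 on each side), 1 was higher and 1 lower around CHGB at an adjusted p under 0.05, 0 around SNAP25, and 3 higher and 0 lower around INSM1. Their median log2 fold changes were -0.01, -0.04 and -0.03. The neighborhoods of CHGB and SNAP25 overlap, each holds the other marker, and the 1 lower gene around CHGB is SNAP25 itself. Around SYP 2 of 40 were higher and 3 lower, with a median of -0.01. Of all tested genes 2.42% were higher and 1.32% lower at that threshold.

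Other genes of the granule were taken from a list of 16 cargo, prohormone processing and granule membrane genes. Of its 11 tested members 9 had a positive and 2 a negative log2 fold change in H295R-PM-Ptc+-labelled libraries, with a median of 0.23, where 8382 of all tested genes had a positive and 8328 a negative value and the median was 0.00. At an adjusted p under 0.05, 2 were higher and 0 lower, against 2.42% and 1.32% of all tested genes. CADPS, which encodes a priming factor of dense-core granules, had 17.6 ± 1.54 and 34.3 ± 1.30 CPM, a log2 fold change of 0.97 (SE 0.0896, adjusted p = 0.000875), and stayed under 0.05 in every alternative. PAM, the enzyme that amidates peptide hormones, had 320 ± 16.9 and 440 ± 27.3 CPM (0.46, adjusted p = 0.0180), and lost the call when any replicate 2 or 3 was left out (0.0645 to 0.106). With the block, 5 were higher and 1 lower, against 12.1% and 10.4% of all tested genes. Among the higher was VGF, a granin-like peptide precursor, at 38.9 ± 5.52 and 45.6 ± 5.5 CPM (0.23, adjusted p = 0.395 without and 0.00946 with the block). SCG3, another granin, named here after its values were seen, had 16, 35 and 32 counts against 55, 61 and 59 (log2 fold change 1.09, adjusted p = 0.0545, or 0.00147 with the block). The lower one was the abundant BEX1, at 120 ± 12 and 109 ± 8.97 CPM (-0.14, adjusted p = 0.511 without and 0.0310 with the block).

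Several elements of the neuroendocrine granule were at or near 0. The prohormone convertase PCSK1 held at most 1 count and PCSK2 at most 2 counts in any library, and the vesicular monoamine transporters, which load catecholamines, at most 1 (SLC18A2) and none (SLC18A1). A count of 0 allows up to 3 counts per library.

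Of 37 other genes of vesicle docking and fusion 33 were tested, 21 with a positive and 12 with a negative log2 fold change, at a median of 0.04. At an adjusted p under 0.05, 2 were higher and 1 lower (all tested genes 2.42% and 1.32%), and with the block 9 and 4 (all tested genes 12.1% and 10.4%). VAMP8, a SNARE of exocrine and endosomal vesicles, held 5, 9 and 7 counts in H295R-labelled libraries and 52, 26 and 40 in H295R-PM-Ptc+-labelled ones, a log2 fold change of 2.48 (SE 0.356, adjusted p = 0.00665). It passed the filter on low counts only through the group in which it was higher, and it was not tested when 10 counts were required in every library, which left 2 calls in the list. Complexin CPLX2, which clamps the assembled SNARE complex, had 7.89 ± 1.00 and 11.9 ± 0.740 CPM (0.59, adjusted p = 0.0357). STX2, a relative of STX1A, had 91.0 ± 0.254 and 71.6 ± 1.37 CPM (-0.35, adjusted p = 0.0255). CPLX2 and STX2 each lost the call in 5 of the 6 fits that left out 1 library, with adjusted p-values of up to 0.144 and 0.124. The 3 most abundant genes of this list, RAB3B, NAPA and SNAP29, did not pass. NAPA, which helps take SNARE complexes apart, had 217 ± 10.2 and 247 ± 13.5 CPM (0.19, adjusted p = 0.256, and 0.00592 with the block). SNAP29, a SNARE of autophagy, had 171 and 157 CPM (-0.12, adjusted p = 0.410, and 0.0508 with the block). RAB3B, a small GTPase of secretory vesicles, stood at 455 ± 113 and 437 ± 133 CPM (-0.06, adjusted p = 0.943), where replicate 1 was the lowest in both groups.

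**Figure D3:**
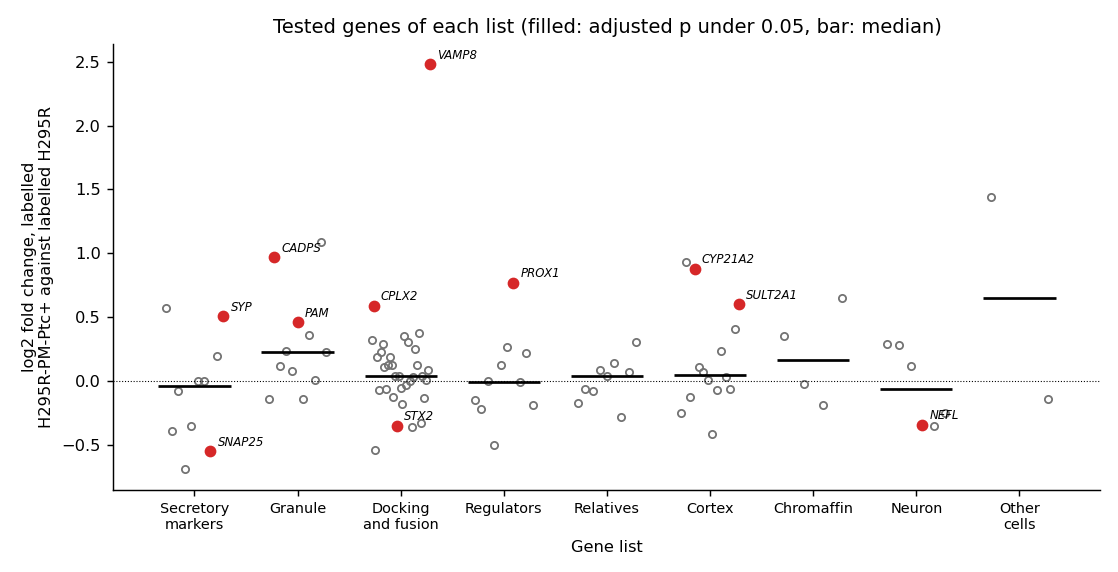
Log2 fold change (labelled H295R-PM-Ptc+ against labelled H295R) of every tested gene of each list, 1 point for each gene, filled and named where the adjusted p is under 0.05, with a bar at the median of the list. The secretory markers spread on both sides of 0 (median -0.04), the other granule genes lie mostly above it (median 0.23), and VAMP8 at 2.48 has under 10 counts in every H295R-labelled library.

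Among 20 transcription regulators of neuroendocrine genes 10 were tested and 10 were not. At an adjusted p under 0.05, 1 was higher (all tested genes 2.42%), and with the block 1 was higher and REST was lower (all tested genes 12.1% and 10.4%). The higher one was PROX1, a homeobox factor, at 3.78 ± 0.608 and 6.46 ± 1.00 CPM (0.77, adjusted p = 0.0472), and it lost the call in 7 alternatives (adjusted p of up to 0.18). REST, whose motif is shown above, had 64.5, 82.6 and 85.5 CPM in H295R-labelled libraries and 59.5, 73.4 and 71.3 in H295R-PM-Ptc+-labelled ones. The groups overlapped, and the log2 difference was -0.19 (adjusted p = 0.498, and 0.0137 with the block). NEUROD1, a factor of neuronal and endocrine differentiation, had no count in any library.

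The cell type of the label was checked with marker lists. Of 15 markers of the adrenal cortex 14 were tested. By mean CPM over the 6 libraries they were led by NR5A1, the master regulator of steroidogenic cells, at 367 ± 40.8 and 351 ± 10.5 CPM (-0.06, adjusted p = 0.797). In H295R-PM-Ptc+-labelled libraries alone STAR was higher, at 397 ± 103 CPM. The summed level of this list was 1230 to 1530 CPM in H295R-labelled libraries and 1350 to 1670 in H295R-PM-Ptc+-labelled ones. At an adjusted p under 0.05, 2 of the 14 differed, both higher in H295R-PM-Ptc+-labelled libraries, the 21-hydroxylase CYP21A2 (0.88, adjusted p = 0.00670) and the sulfotransferase SULT2A1 (0.60, adjusted p = 0.0306), against 2.42% of all tested genes. SULT2A1 lost the call in 5 of the 6 fits that left out 1 library (0.0617 to 0.0879). With the block 3 were higher and 1 lower (all tested genes 12.1% and 10.4%), among them STAR, which carries cholesterol into mitochondria (0.41, adjusted p = 0.346 without and 3.91e-06 with the block), and, named after its values were seen, the side-chain cleavage enzyme CYP11A1 (-0.24 and 0.001 with the block, 0.391 without). In contrast, 8 of 12 chromaffin markers were too low to test. The enzymes of catecholamine synthesis were at or near 0, with no count of DBH or PNMT, at most 1 count of DDC and at most 2 of TH in any library. The summed chromaffin level was 11.9 to 14.9 CPM and 12.6 to 13.5 CPM, mostly from GCH1, which other cells express as well, and 0 of the 4 tested members had an adjusted p under 0.05 by edgeR, by DESeq2 or at an unadjusted p under 0.05.

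Of 12 neuronal markers 6 were tested, of which 1 was lower at an adjusted p under 0.05 (all tested genes 1.32%). Neurofilament NEFL had 174 ± 7.60 and 137 ± 6.33 CPM (-0.34, adjusted p = 0.0417, up to 0.186 with a library left out), while ELAVL4 and STMN2 had no count in any library. With the block 1 was higher, GAD1 (0.28, adjusted p = 0.0169, against 0.232 without), and 3 were lower, NEFL, NEFM (-0.35, 0.000581 against 0.112) and TUBB3 (-0.25, 0.00202 against 0.186), where 12.1% of all tested genes were higher and 10.4% lower. GAD1, GAP43 and MAP2 were named after their values were seen. The remaining 2, GAP43 and MAP2, had positive values (0.28 and 0.12, adjusted p = 0.752 and 0.871). The summed neuronal level, carried by NEFL, TUBB3 and NEFM, was up to 324 CPM in H295R-labelled libraries and at most 263 in H295R-PM-Ptc+-labelled ones, and its part in the differences of the markers was not tested. Of 13 markers of blood, endothelial, Schwann and fibroblast cells 11 were too low to test, and none of the tested 2 passed by edgeR or DESeq2 (1 had an unadjusted p under 0.05). SOX10, which defines Schwann cells, was at 0 in every library.

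**Figure D4:**
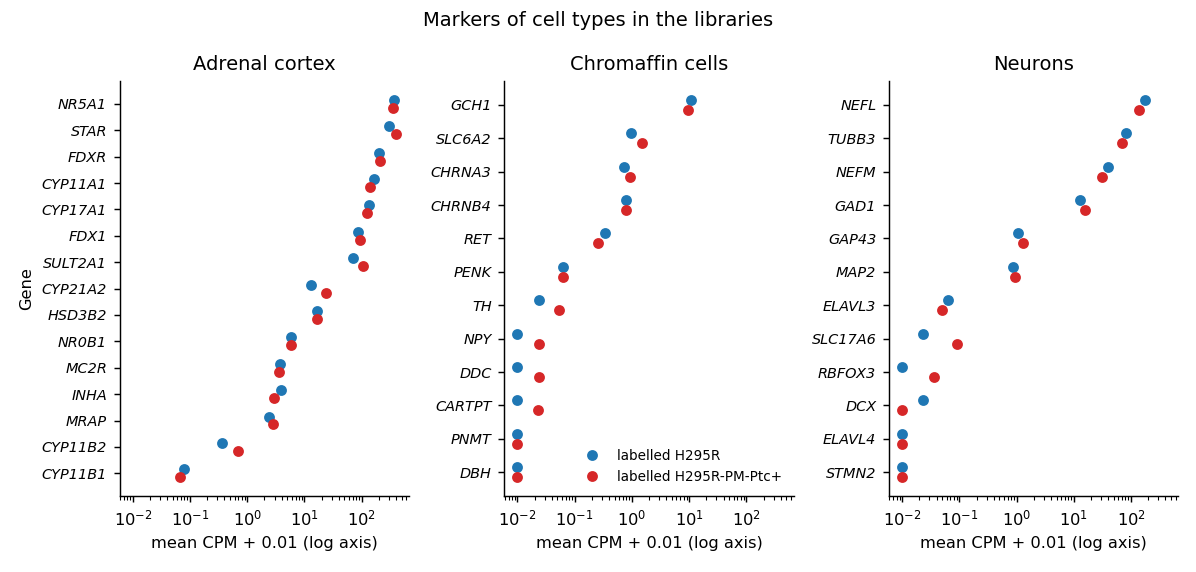
Mean CPM (plus 0.01, log axis) of each marker of the adrenal cortex, chromaffin cells and neurons in the 3 libraries of each label. NR5A1 lies at 367 and 351 CPM, whereas DBH and PNMT lie at the left edge, which stands for 0 counts.

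The genes whose log2 CPM over the 6 libraries was most like that of the 3 markers with the highest mean CPM were also listed. For SYP these were DLK1 (r = 0.999), ACKR3 (0.996) and SLC7A8 (0.995), with log2 fold changes of 0.78, 1.55 and 0.51. For CHGB they were SIX2 (0.998), C19orf12 (0.992) and RFX2 (0.990), between -0.28 and -0.18. For NCAM1 they were TBL1X (0.995), C3orf70 (0.994) and MEGF10 (0.993), between -0.35 and -0.20. These values are a description over 6 libraries that share the group and replicate differences.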

How the data were processed

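RNA-seq libraries of 3 H295R and 3 H295R-PM-Ptc+ replicates were used. The authors mapped the reads to hg38 with STAR 2.4.0a and obtained fragment counts by gene name from featureCounts (Subread 1.5.0-p3 in the processing notes, Ensembl annotation, with the strand option, primary alignments of multiply mapped reads included), and deposited raw counts without normalization or filter. The row without a gene name held 0 counts and was left out. The quasi-likelihood test of edgeR 4.0.16 (R 4.3.3) was run two-sided after filterByExpr and TMM scaling, with no term but the group and with Benjamini-Hochberg adjustment over 16710 genes that held 99.9% of the counts. The study states DESeq2, used here (1.42.0) as an alternative. Standard errors were taken from the F statistic, CPM from TMM-scaled library sizes and TPM from the table's gene lengths. With 23264403 to 25813247 fragments per library, genes of 15 to 52 counts per library have wide intervals. The fits were tested on counts simulated from these libraries.

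Same-numbered replicates of both groups carry the same code in their labels (1801, 3001 and 3101), whose meaning the labels do not give. Their deviations from the group means correlated at 0.594, 0.405 and 0.325, against -0.443 to 0.211 otherwise. A fit with the replicate as a block is therefore given where it changes a call. Alternatives were RLE size factors, no filter, at least 10 counts in every library, limma-voom 3.58.1, an adjusted p under 0.1, each library left out and, added after seeing the data, both libraries of replicate 1 left out. The markers and lists were chosen with earlier results of these data known. Named were all 10 markers, PTCH1, of each other list the genes with an adjusted p under 0.05 and the 3 of highest CPM, and the genes most like the 3 most abundant markers (mean CPM of at least 1, pseudocount 0.5). Some of these genes are given only as counts, and genes at or near 0, SCG3, PTPRN, SYN1, SYT5 and SYPL2 were named after their values or sequence were seen. Some items are not reported here.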

Additional observations from a re-analysis of the deposited data

How the results depend on the processing

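With RLE size factors, none of the counts of genes past the threshold moved by more than 1.5 times. The count over all genes was 624 and became 1111 with no filter on low counts, 3758 with the replicate block and 2013 without both libraries of replicate 1, with 219 to 810 when 1 library was left out. The markers called were 2, then 4 with the block, 4 without both libraries of replicate 1, 3 with an adjusted p under 0.1 and 0 to 3 with 1 library left out. For the other granule genes the block gave 6, leaving out both replicate 1 libraries 4 and leaving out 1 library 1 to 2. For docking and fusion genes the block gave 13 and leaving out 1 library 1 to 3. For the regulators it was 0 with limma-voom, 0 where each library had to hold 10 counts, 2 with the block, 2 without both replicate 1 libraries and 0 to 1 with 1 left out. For family relatives the block gave 2 and leaving out both replicate 1 libraries 1. For cortex markers the block gave 4 and leaving out 1 library 1 to 2, for neuronal markers 4 and 0 to 1, and for blood, endothelial, Schwann and fibroblast markers 1 with the block, 1 without both replicate 1 libraries and 0 to 1 with 1 left out. The causes were not tested. SYP, SNAP25, CHGB, NCAM1, CHGA, STX1A and INSM1 kept their direction in all alternatives.

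Fold changes under the alternatives were computed for the markers, PTCH1 and the listed genes that the naming rule takes, not for genes named after their values were seen or for genes of like pattern. Of those computed, the genes below turned direction, and they were called in no fit. ENO2 reached 0.08 without H295R replicate 1 and 0.08 without both replicate 1 libraries (range with 1 library left out -0.18 to 0.08). SCG2 reached 0.06 with limma-voom, 0.02 with the block, and -0.29 to 0.39 with 1 library left out. SCG5 reached 0.00 under the stricter count filter, 0.01 with limma-voom, 0.01 with the block, 0.03 without both replicate 1 libraries, and -0.08 to 0.12 with 1 library left out. With 1 library left out RAB3B ranged from -0.25 to 0.17 and RCOR1 from -0.09 to 0.07. NR5A1 ranged from -0.14 to 0.01 and lay at 0.01 without both replicate 1 libraries, and FDXR ranged from 0.00 to 0.13 (all log2).

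Counts of 15 to 52 per library for CHGA, SCG2, SCG5 and INSM1 limit the precision for these genes. With 2 libraries against 3 or 2 against 2, the spread of each group is pooled in the fit.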

Other observations

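Several relatives of the markers that most tissues express were higher than the markers themselves. The general enolase ENO1 stood at 383 to 459 TPM, 21.0 to 32.2 times ENO2 in the same library, and SYPL1, a widely expressed relative of SYP, at 137 to 172 TPM. SNAP23, which takes the place of SNAP25 outside neurons, stood at 29.9 to 35.1 TPM and STX2, STX3 and STX4 at 72.2 to 91.5, 33.4 to 40.4 and 32.7 to 38.1 TPM, against 4.19 to 5.84 TPM for STX1A. None of the 9 tested relatives on the list (which leaves out the syntaxins and SNAP23, listed with docking and fusion) had an adjusted p under 0.05 by edgeR or by DESeq2, and none had an unadjusted p under 0.05 by edgeR. With the replicate block ENO1 was lower in H295R-PM-Ptc+-labelled libraries (-0.17, adjusted p = 0.0101, against 0.295 without the block) and SYPL2, named after its values were seen, was higher (0.32, adjusted p = 0.0340, against 0.31 and 0.392).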
